A study of Mus musculus with 18 samples.

Results

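Cystatins are inhibitors of cysteine proteases. They bind in the active site of the papain-like cathepsins, and some also bind legumain, so they set how much of that activity is free in lysosomes, in the cytosol and outside cells. In brain the family is best known for cystatin C, an abundant secreted inhibitor found in cerebrospinal fluid, and for cystatin F, which microglia express in diseased tissue. Described here are 4 cystatin genes of the mouse, Cst7 (cystatin F), Cst3 (cystatin C), Cst6 (cystatin E/M) and Cstb (cystatin B, or stefin B), among 48440 genes of the deposited table. They were taken by symbol, and each symbol has 1 row. The set was chosen by measured values, the levels of these genes in 5xFAD and WT in these same libraries, so genotype differences are given as descriptions without a test.

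Mouse brain RNA was sequenced in 18 libraries that form 3 groups of 6. WT mice and 1 of the 5xFAD groups received the control diet for 1 month, and the other 5xFAD group received the fucose diet for as long. The 5xFAD line models inherited Alzheimer's disease through mutant human transgenes, which are driven by elements of the neuronal Thy1 promoter, and it develops amyloid plaques. Fucose is a monosaccharide of glycoprotein side chains. The labels give no brain region, sex or age and do not say that each library is a separate animal, so the spread measured is that between libraries. WT mice on fucose are not analysed here, so diet was compared in 5xFAD only.

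Libraries held 31.4 to 44.2 M reads counted in genes (median 38.9 M), and levels are normalized counts, reads scaled by the authors with 1 factor per library, so that 1 read is worth 0.886 to 1.24. Where a gene had no read, up to 3 reads per library remain possible from counting error alone. Little Xist was found in 1 library of each group (at most 11.7 normalized counts, against at least 7251 in the other libraries): WT replicate 4, 5xFAD control replicate 5 and 5xFAD fucose replicate 5. 5xFAD control replicate 5 also had the highest mean log2 level of 80 ribosomal protein genes, 12.7, where the other 17 libraries ran from 11.9 to 12.5. Brain markers stood high in every library: the 6 neuron markers averaged 14.6 to 14.9 on the log2 scale, the 8 astrocyte markers 12.2 to 12.6 and the 10 microglia markers 9.66 to 10.9.

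Cst7 (ENSMUSG00000068129.5, mm10 chromosome 2, 150570415 to 150578944, plus strand) encodes an inhibitor that is sorted to lysosomes and is known from cytotoxic lymphocytes, where cathepsin C is one of its targets. It was close to silent in WT brain. The 6 WT libraries ran from 8.10 to 35.4 normalized counts with a median of 21.1, which is 9 to 36 recovered reads. The 6 5xFAD control libraries ran from 1842 to 3848 with a median of 2648. The 6 5xFAD fucose libraries ran from 1239 to 4613 with a median of 2681. Every 5xFAD library on either diet lay above every WT library, and the lowest of the 12 was 35.0 times the highest WT library. The means were 21.2 ± 9.96 in WT, 2655 ± 704 in 5xFAD on control diet and 2786 ± 1103 in 5xFAD on fucose (SD, n = 6 each).

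The log2 fold change of Cst7 between 5xFAD and WT on control diet was 7.001 ± 0.32 (moderated SE), first of 18808 tested genes, and 7.01 ± 0.32 between 5xFAD on fucose and WT. These comparisons share the WT libraries. Of the 4 cystatins, 1 (Cst7) had no overlap between 5xFAD and WT libraries in either comparison, where 1.8% of all tested genes were higher without overlap on control diet and 1.41% with the fucose group. Since these values chose the genes, nothing is read from that count. In WT the spread of Cst7 was a coefficient of variation of 47.0%, where counting alone gives 21.8%. In 5xFAD it was 26.5% on control diet and 39.6% on fucose, where counting gives 1.91% and 1.89%, so nearly all of the spread in 5xFAD lies between libraries and not in the depth.

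**Figure D1:**
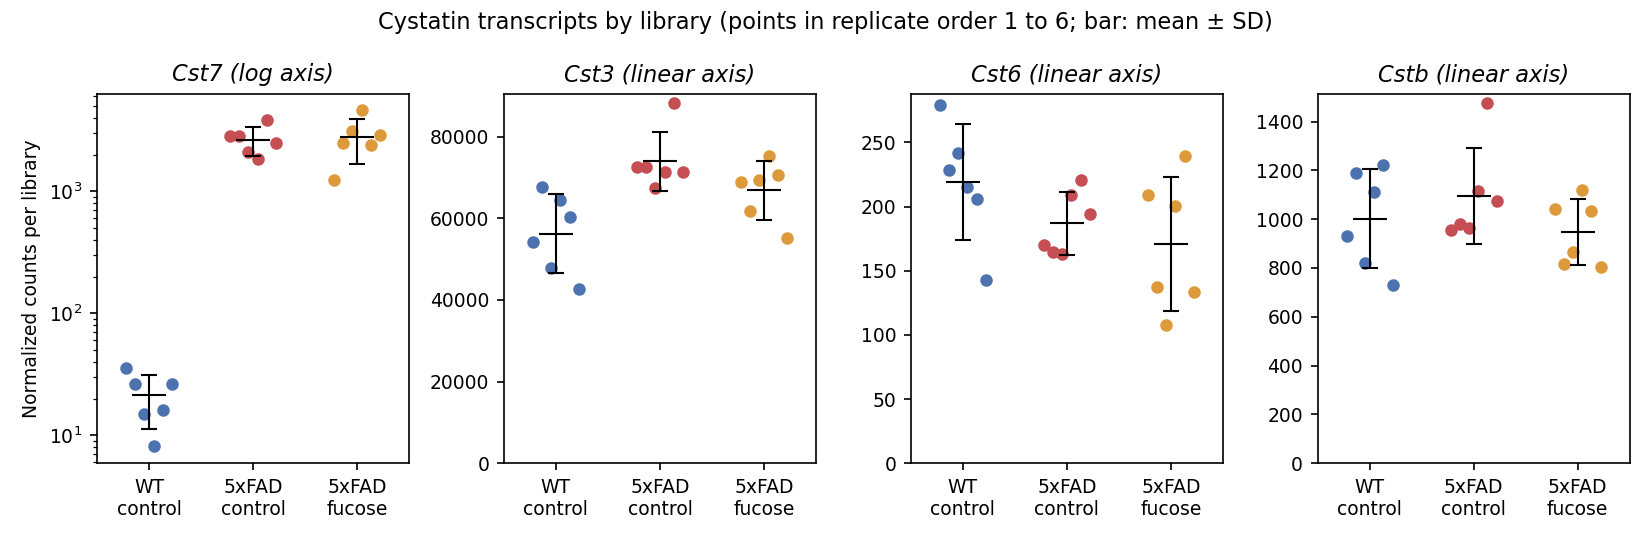
Normalized counts of Cst7 (log axis), Cst3, Cst6 and Cstb (linear axes from 0) in each of 18 libraries, by group, with points in the order of replicates 1 to 6 and bars for mean ± SD (n = 6). All 12 5xFAD libraries stand above all 6 WT libraries for Cst7, while the groups overlap for the other genes, and 5xFAD control replicate 5 is the highest point for Cst3 and Cstb.

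Cst3 (ENSMUSG00000027447.6, chromosome 2, 148871722 to 148875692, minus strand) encodes the secreted inhibitor of cathepsins that is made by astrocytes, microglia and choroid plexus, among other cells. It was the most abundant of the 4 in every group. The WT libraries ran from 42776 to 67749 normalized counts with a median of 57212. The 5xFAD control libraries ran from 67529 to 88282 with a median of 71957. The 5xFAD fucose libraries ran from 55179 to 75164 with a median of 69147. On control diet 5 of 6 5xFAD libraries exceeded the top WT value and the remaining library was just under it. The means were 56219 ± 9711, 73947 ± 7264 and 66823 ± 7170 (SD, n = 6 each).

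The log2 fold change of Cst3 was 0.41 ± 0.10 (SE) in 5xFAD against WT on control diet, or 1.33-fold, and 0.26 ± 0.10 in 5xFAD on fucose against WT, or 1.20-fold. The mean of the ribosomal protein genes moved in the same direction on control diet, by 0.19 on the log2 scale between 5xFAD and WT. With that mean as a covariate, an alternative chosen after seeing the data, the log2 fold change of Cst3 on control diet was 0.24 ± 0.056. Without 5xFAD control replicate 5 it was 0.36 ± 0.10. The part of the ribosomal protein mean beyond this covariate was not tested, and in bulk tissue more cells of a type and more RNA per cell cannot be told apart.

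Cstb (ENSMUSG00000005054.6, chromosome 10, 78425670 to 78427619, plus strand) encodes a cytosolic and nuclear inhibitor without a secretion signal, whose loss in people causes a progressive myoclonus epilepsy. The WT libraries ran from 731 to 1222 normalized counts with a median of 1022. The 5xFAD control libraries ran from 958 to 1478 with a median of 1028. The 5xFAD fucose libraries ran from 805 to 1120 with a median of 949.6. The 3 groups overlapped throughout, and the group means, 1001 ± 203, 1095 ± 198 and 947 ± 134 (SD, n = 6 each), stood close beside these SDs. The log2 fold change in 5xFAD against WT was 0.14 ± 0.13 (SE) on control diet and -0.066 ± 0.13 on fucose. With the ribosomal protein mean as a covariate the first of these was -0.086 ± 0.084, and without 5xFAD control replicate 5 it was 0.048 ± 0.13.

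Cst6 (ENSMUSG00000024846.5, chromosome 19, 5344705 to 5349574, minus strand) encodes a secreted inhibitor of legumain and of cathepsins that is best known from skin. The WT libraries ran from 143 to 279.6 normalized counts with a median of 222. The 5xFAD control libraries ran from 163 to 220.5 with a median of 182, and the 5xFAD fucose libraries from 108 to 239.7 with a median of 169. All 6 5xFAD control libraries were under the WT median, yet inside the WT range, whose lowest library was WT replicate 6. The means were 219 ± 45.3, 187 ± 24.7 and 171 ± 52.1 (SD, n = 6 each). The log2 fold change in 5xFAD against WT was -0.21 ± 0.19 (SE) on control diet and -0.38 ± 0.19 on fucose, where 3 of 6 libraries lay under the lowest WT library. With the ribosomal protein mean as a covariate the first of these was -0.39 ± 0.19, and with 1 library left out in turn it ran from -0.33 without WT replicate 6 to -0.13 without WT replicate 1.

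Per kilobase of annotated exon, the order of the 4 levels changed with genotype. In WT it was Cst3 (44406 normalized counts per kb), Cstb (1660), Cst6 (53.5) and Cst7 (21.5). In 5xFAD on control diet it was Cst3 (58410), Cst7 (2693), Cstb (1816) and Cst6 (45.7), and on fucose Cst3 (52783), Cst7 (2826), Cstb (1571) and Cst6 (41.8). Cst7 was thus 0.0484% of the level of Cst3 in WT, 4.61% in 5xFAD on control diet and 5.35% on fucose. By level per kb among 18751 genes with a length, Cst7 was at rank 14647 in WT and 736 in 5xFAD on control diet, while Cst3 was at rank 14 and 12. The exon length of Cst6 includes a transcript with a retained intron, so its level per kb is low compared with one per coding transcript.

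Of the 4 cystatins, 2 matched an entry of the RefSeq promoters, Cst7 and Cst3. Both stretches are shown, since these genes of 1 family on 1 chromosome differ in level and in size of change. They are RefSeq promoters of GRCm38.p6 (mm10), 250 bases before to 50 after the start in RefSeq, at chr2:150570165-150570464 on the plus strand for Cst7 and chr2:148875463-148875762 on the minus strand for Cst3. The RefSeq start of Cst7 is also the start of the gene as given above, while that of Cst3 (148875512) lies 180 bases inside the gene as given above. Capitals mark matches to AGGAAGT, a sequence bound by ETS factors such as PU.1, and to GGGCGG, the core bound by Sp1. Only matches to the whole of these strings are marked, and shorter stretches of them, such as GGAA, are not.
Cst7: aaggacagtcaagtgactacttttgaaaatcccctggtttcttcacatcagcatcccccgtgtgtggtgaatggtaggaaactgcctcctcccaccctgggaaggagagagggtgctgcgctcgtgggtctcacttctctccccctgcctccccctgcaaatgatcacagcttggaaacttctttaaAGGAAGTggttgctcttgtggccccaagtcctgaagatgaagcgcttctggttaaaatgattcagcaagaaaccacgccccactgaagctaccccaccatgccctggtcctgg
Cst3: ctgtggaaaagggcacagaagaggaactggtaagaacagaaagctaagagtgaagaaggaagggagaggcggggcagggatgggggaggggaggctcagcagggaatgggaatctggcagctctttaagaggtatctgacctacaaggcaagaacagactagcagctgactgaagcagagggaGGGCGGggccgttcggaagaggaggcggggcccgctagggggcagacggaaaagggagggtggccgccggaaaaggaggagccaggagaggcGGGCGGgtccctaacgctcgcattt

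The Cst7 window has 1 match to AGGAAGT, starting at position -63 from the RefSeq start, and the Cst3 window has 2 matches to GGGCGG, starting at -67 and 26 from its own. Both strands were searched, also for TATAAA and CACGTG, and no match overlapped another motif. Of 32851 promoters of this length, 9.35% hold AGGAAGT, 35.7% GGGCGG, 13.6% TATAAA and 7.15% CACGTG. These matches describe letters in a window and nothing was measured of binding there.

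Whether the fucose diet changed cystatin levels in 5xFAD was tested with limma on log2(normalized count + 1) across 18808 genes. It shares the 5xFAD control libraries with the genotype comparison. Of the 4 cystatins 0 were called, as were 0% of all tested genes (0 at an adjusted p under 0.05, 1005 at an unadjusted p under 0.05). edgeR and DESeq2 also called 0, with 948 and 1035 at an unadjusted p under 0.05. Cst7 differed by a log2 fold change of 0.0064 ± 0.32 (SE, adjusted p = 0.997), and the 95% interval of the change ran from -37.5% to 61.3%. The fucose libraries held both the lowest and the highest Cst7 level of the 12 5xFAD libraries, in replicates 1 and 4, and 3 of 6 lay above the median of the control libraries. The diet groups overlapped for all 4 genes, while 0.0638% of tested genes were higher and 0.122% lower on fucose without overlap. A Cst7 difference anywhere inside that interval is compatible with these values, and the interval is not a limit of detection.

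Cst3 had a log2 fold change of -0.15 ± 0.10 (SE, adjusted p = 0.825, 95% interval 0.781-fold to 1.04-fold), with 1 of 6 fucose libraries above the control median and 2 under the lowest control library. Cstb had one of -0.20 ± 0.13 (adjusted p = 0.823, interval 0.718-fold to 1.05-fold), with 3 of 6 fucose libraries under the lowest control library. Cst6 had one of -0.17 ± 0.19 (adjusted p = 0.884, interval 0.671-fold to 1.17-fold). These intervals lie inside 2-fold in both directions. The ribosomal protein mean was lower on fucose by a log2 difference of -0.20, and its use as a covariate was chosen after seeing the data. With it the log2 fold changes were 0.035 ± 0.056 (SE) for Cst3, 0.032 ± 0.085 for Cstb and 0.014 ± 0.19 for Cst6. Each was of opposite sign but smaller than its SE, so its sign is not settled. With 5xFAD control replicate 5 left out, Cst3 was at -0.096 and Cstb at -0.11 (adjusted p = 0.993 for both).

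**Figure D2:**
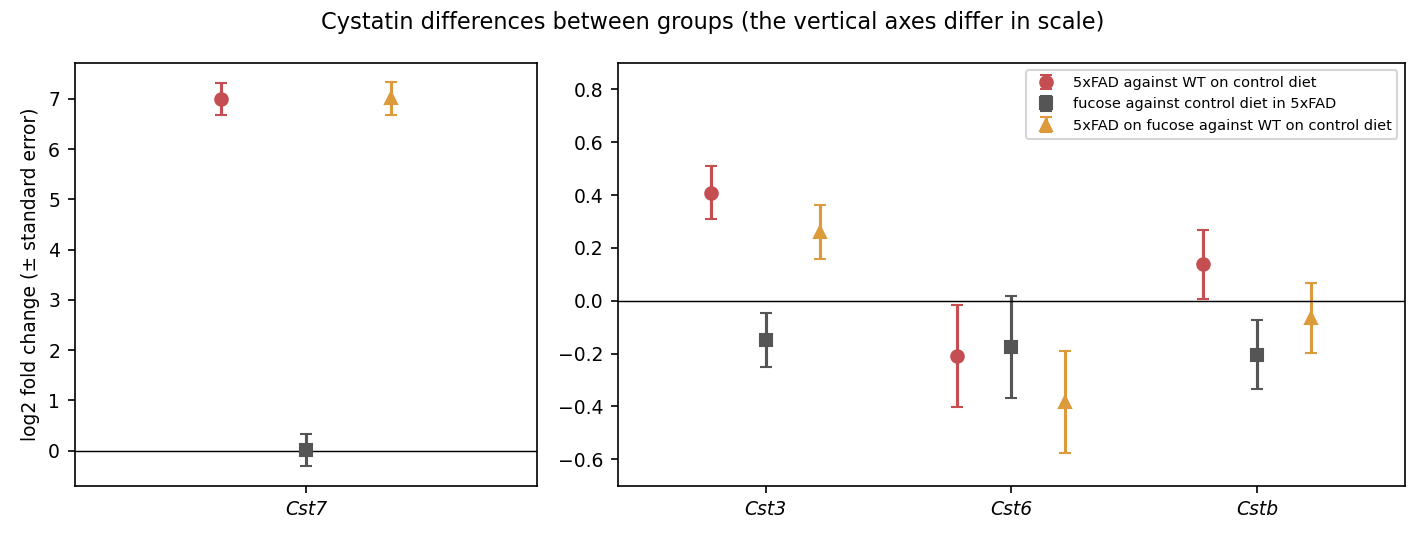
Log2 fold changes (vertical axes, points, ± moderated standard error) of Cst7 (left, scale to 8) and of Cst3, Cst6 and Cstb (right, scale within 1) in the 3 comparisons. Cst7 stands at 7.001 and 7.01 against WT and at 0.0064 between the diets, and the other cystatins lie between -0.38 and 0.41.

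Cst7 was also set against 10 markers of microglia, cells known to express it around plaques. Of these markers 5 rose in 5xFAD on control diet, where 1.97% of tested genes rose, with a median log2 fold change of 0.84 beside -0.0078 over all genes. Csf1r, the growth factor receptor of microglia, was among them (0.85 ± 0.084 SE, adjusted p = 2.36e-07), although 15.1% of its exon bases also belong to Hmgxb3, which is read from the other strand. The log2 level of Cst7 minus the mean log2 level of these markers was -5.44 ± 0.75 in WT, 0.797 ± 0.33 in 5xFAD on control diet and 0.767 ± 0.34 on fucose (SD, n = 6 each). The difference between 5xFAD and WT on control diet was 6.24 on this scale, where that of the markers alone was 0.76. Between the diets it was -0.030 (2-sided exact permutation p = 0.892, 924 arrangements of 6 and 6 libraries).

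Cytotoxic lymphocytes also express Cst7, and their part in its levels was not tested. Of 8 of their markers 2 passed the filter on low counts, Cd3e and Cd8a, and 0 of these were called by limma in any comparison. Of all tested genes 2.14% were called in 5xFAD against WT on control diet and 0% between the diets. In 5xFAD on fucose against WT, 359 of 18808 were called higher and 17 lower. The summed level of the 8 markers was 8.68 to 82.4 normalized counts in WT, 16.8 to 85.0 in 5xFAD on control diet and 21.003 to 129 on fucose, and these ranges overlap. Cd8a had 344 reads over all 18 libraries, with a log2 fold change of 0.82 in 5xFAD on control diet, and Cd3e had 146. Nkg7, a granule gene, had 141 reads, with means of 2.88, 8.71 and 10.9 normalized counts in WT, 5xFAD control and 5xFAD fucose. The receptor gene Klrd1 had 92 reads, with means of 8.51, 4.43 and 2.30 in the same order. The perforin gene Prf1 had 39 reads, at 0 in every WT library and with means of 2.24 and 3.95 in the 5xFAD groups. The granzyme genes Gzmb and Gzma had 54 and 12 reads, and the natural killer receptor gene Ncr1 had 7. Markers of neutrophils, another source of leukocyte RNA, summed to 2.84 to 41.3, 5.48 to 117.8 and 12.3 to 135.8 in the same order.

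Within 5xFAD, the genes most like Cst7 across libraries were sought. Likeness was Pearson's r of the deviations from the group mean on the log2 scale over the 12 5xFAD libraries, among genes with a mean of at least 100 normalized counts, given as a description. Highest were the chemokine gene Ccl3 (r = 0.972), the lysosomal aspartic protease gene Ctsd (0.959), the signalling adaptor gene Tyrobp (0.951), its partner receptor gene Trem2 (0.933) and Tgfb1, a growth factor gene (0.917). With the 2 libraries farthest from the median of Cst7 left out, r over 10 libraries was 0.903, 0.961, 0.840, 0.812 and 0.775. In the 6 WT libraries, where Cst7 had few reads, r was between -0.79 and -0.13 for the same genes. Ctsd shares 34.4% of its exon bases with a second entry on its strand.

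These 5 genes rose in 5xFAD on control diet by log2 fold changes of 4.14 for Ccl3, 2.55 for Trem2, 2.34 for Tyrobp, 1.52 for Ctsd and 0.99 for Tgfb1, all less than Cst7 (limma adjusted p from 8.39e-09 to 0.000535). On fucose against control diet in 5xFAD the same genes had log2 fold changes from -0.59 for Ccl3 to -0.14 for Ctsd. 0 of 5 were called by limma, as were 0% of all tested genes. Ccl3 averaged 26.8 ± 13.9 normalized counts in WT, 415 ± 194.5 in 5xFAD on control diet and 306.5 ± 196 on fucose (SD, n = 6 each). Against the mean of the microglia markers, r of Cst7 over the 12 5xFAD libraries was 0.777 (Spearman's rho 0.566), and 0.405 without the 2 farthest libraries, so that relation rests on them. The library with the lowest Cst7 among 5xFAD, fucose replicate 1, also had the lowest microglia marker mean, 9.82, where the other 11 ran from 10.3 to 10.9.

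Cst3 and Cstb varied with ribosomal protein genes across libraries. Among the 5 genes most like Cst3 over the 12 5xFAD libraries were 4 genes of ribosomal proteins, Rps6 (r = 0.958), Rps19 (0.955), Rpl11 (0.955) and Rps26 (0.952), and r in the 6 WT libraries was 0.845 to 0.960 for these 4. The 5 most like Cstb were Pym1 (0.966), Bri3 (0.965), the ribosomal protein gene Rpl36 (0.957), the RNA polymerase subunit gene Polr2f (0.957) and Arf5 (0.955). Ribosomal protein genes have many processed copies in the genome, so their own counts are uncertain. Against the mean of the 80 ribosomal protein genes over all 18 libraries, as deviations from group means, r was 0.920 for Cst3 (rho 0.909) and 0.902 for Cstb (rho 0.909), and 0.959 and 0.839 without the 2 farthest libraries. For Cst6 it was 0.536 (rho 0.538). For Cst7 it was -0.10, with 0.313 over the 12 5xFAD libraries and -0.61 over the 6 WT libraries. Against the mean of the cysteine cathepsin and legumain genes below, r over the 12 5xFAD libraries was 0.855 for Cst3 and 0.620 for Cstb. Without the 2 farthest libraries these were 0.617 and 0.368. Over the same 12 libraries r was 0.286 for Cst7 and 0.397 for Cst6. Over the 6 WT libraries it was 0.020 for Cst3, 0.096 for Cstb, -0.61 for Cst7 and -0.75 for Cst6. Points of 1 group share a genotype and diet, and all values of a library share its depth and its RNA.

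**Figure D3:**
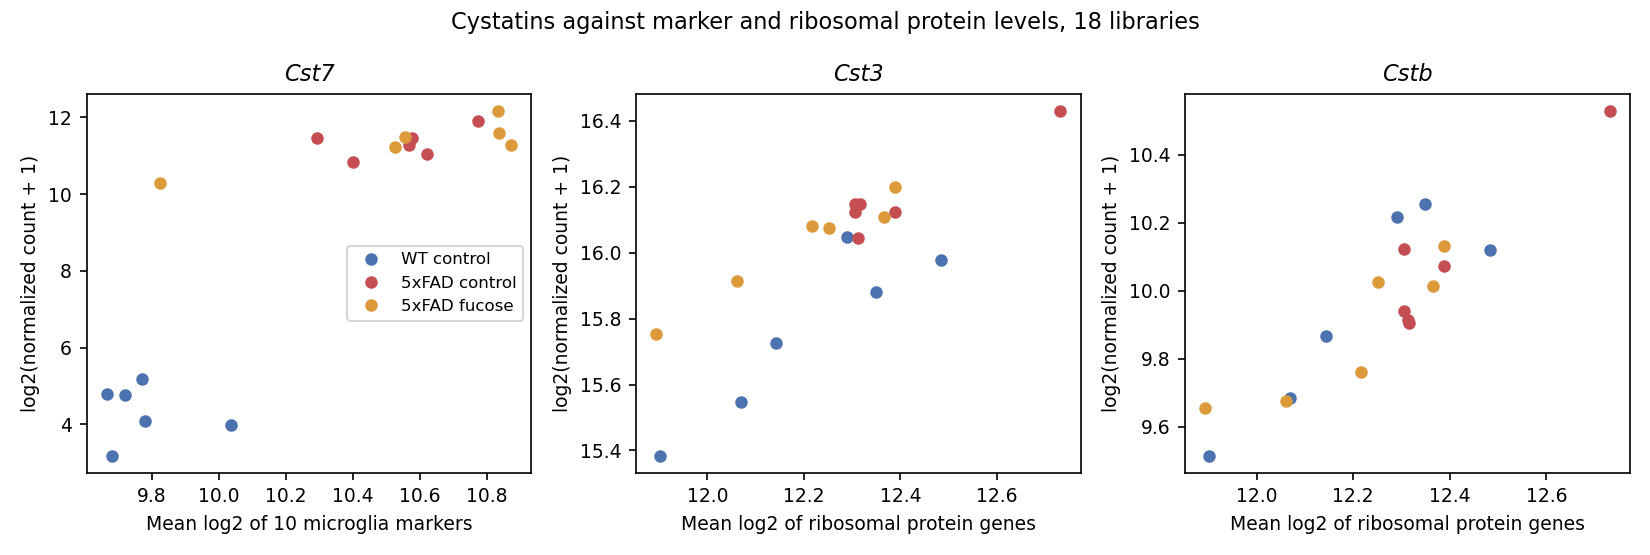
Log2(normalized count + 1) of Cst7 against the mean log2 level of 10 microglia markers (left), and of Cst3 (middle) and Cstb (right) against the mean log2 level of 80 ribosomal protein genes, 1 point per library, coloured by group. WT libraries lie low for Cst7, also beside the 5xFAD fucose library whose marker mean (9.82) is inside the WT range, while Cst3 and Cstb run along the ribosomal protein mean in all 3 groups, with 5xFAD control replicate 5 at the upper right.

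Among themselves, Cst3 and Cstb deviated together (r = 0.907, rho 0.893 over 18 libraries, and 0.876 without the 2 farthest). Cst6 deviated less closely with Cstb (0.597) and with Cst3 (0.473). For Cst7 the pooled r was -0.0054 with Cst3, -0.087 with Cst6 and -0.045 with Cstb. Over the 12 5xFAD libraries it was 0.355 with Cst3 (0.487 without the 2 farthest), -0.18 with Cst6 and 0.204 with Cstb, and over the 6 WT libraries, where Cst7 had 9 to 36 reads, -0.30, 0.047 and -0.30. The 5 genes most like Cst6 over the 12 5xFAD libraries were Mrpl47 (0.913), H2-M3 (0.910), Irf2bp1 (0.901), Begain (0.896) and Siva1 (0.892), yet in the 6 WT libraries the same r ran from -0.66 to 0.47. 

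The nearest tested genes on either side of Cst7 had small differences. Apmap, 4136 bases to its right and on the other strand, averaged 1944 ± 163 normalized counts in WT and 1932 ± 133 in 5xFAD on control diet (log2 fold change -0.0080 ± 0.079 SE). The nearest tested gene to the left, Gm14121, lies 69570 bases away and had a log2 fold change of 0.14 ± 0.25. Neither was called by limma, and 0 of the 8 nearest tested neighbours of the 4 cystatins were called in 5xFAD against WT on control diet or between the diets. Of all tested genes 2.14% and 0% were called in these comparisons, so nothing is read from that count. None of the 4 cystatin genes shares exon bases with another gene in GENCODE M21.

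The rest of the family was hardly seen in these brains. Of 22 other genes of the stefin, cystatin and kininogen or fetuin types, 20 are in the table, 7 of these had 0 reads in all 18 libraries and 1 passed the filter on low counts. That gene was Fetub, a fetuin of plasma made in liver, at 5.38, 11.2 and 3.55 normalized counts on average in the WT, 5xFAD control and 5xFAD fucose groups. Its log2 fold changes of 1.69 in 5xFAD against WT on control diet (limma adjusted p = 0.528) and -1.81 between the diets in 5xFAD (adjusted p = 0.822) were not called. Cstl1, a relative of the secreted cystatins, had 75 reads in all, and the stefin gene Stfa1, known from neutrophils, had 20. 

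Of 11 genes of cysteine cathepsins and legumain, the proteases that cystatins inhibit, 7 rose in 5xFAD on control diet, 0 fell and 4 did not pass (limma adjusted p under 0.05 over all genes, where 2.14% of tested genes were called, 1.97% higher and 0.165% lower), with a median log2 fold change of 0.60 beside -0.0078 over all genes. The microglia markers moved with them (5 of 10 rose, all 10 above 0, median 0.84), and their part in this was not tested. The smallest p-values were those of Ctss, a protease of microglia and other antigen-presenting cells (3393 ± 311 to 9292 ± 593 normalized counts, log2 fold change 1.46 ± 0.096 SE), the carboxypeptidase gene Ctsz (1.48 ± 0.11), the aminopeptidase gene Ctsh (1.08 ± 0.12) and Ctsb, a main lysosomal protease (0.54 ± 0.067), which shares 12.8% of its exon bases with Fdft1 on the opposite strand. Ctsc, a target of cystatin F, went from 335 ± 88.9 to 541 ± 109 (0.71 ± 0.16), and Lgmn, the legumain gene, from 4936 ± 237 to 6880 ± 603 (0.48 ± 0.070). Ctso, Ctsf, Ctsk and Ctsw did not pass, at 0.18, -0.049, -0.29 and 0.73. On fucose against control diet 0 of the 11 were called by limma, as were 0% of all tested genes. Their median was 0.00077 and their range -0.15 to 0.14. Per kb of exon, Ctss stood at 6843 and Ctsb at 6597 normalized counts in 5xFAD on control diet, above Cst7 (2693) and under Cst3 (58410).

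**Figure D4:**
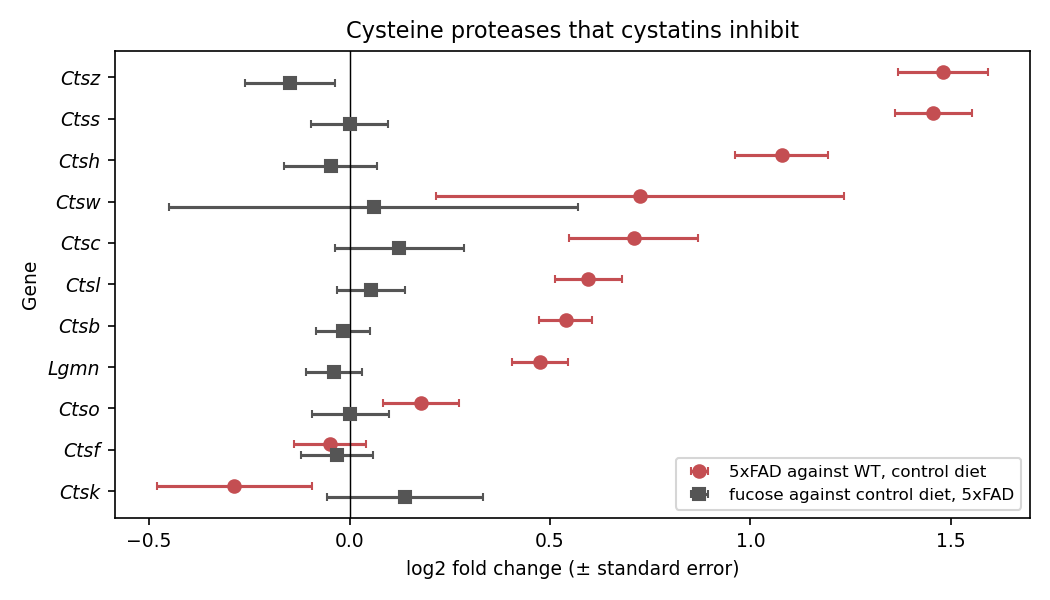
Log2 fold changes (horizontal axis, ± standard error) of 10 cysteine cathepsin genes and Lgmn, in 5xFAD against WT on control diet (circles) and in fucose against control diet within 5xFAD (squares). 7 genes from Lgmn to Ctsz rose with genotype, Ctsw did not pass, and between the diets all lie within -0.15 to 0.14.

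Choroid plexus, which makes much Cst3, was present in varying amounts. Ttr, its most abundant transcript, averaged 58843 ± 42436 normalized counts in WT, 74573 ± 42308 in 5xFAD on control diet and 45559 ± 26933 on fucose (SD, n = 6 each). 0 of its 8 markers were called in any comparison by limma. Of all tested genes 2.14% were called in 5xFAD against WT on control diet and 0% between the diets. In 5xFAD on fucose against WT, 359 of 18808 were called higher and 17 lower. Over all 18 libraries r of Cst3 with the mean of these markers was -0.31 (rho -0.29, and -0.28 without the 2 farthest) as deviations from group means, and r with the 8 astrocyte markers was -0.54 (rho -0.47, and -0.33 without the 2 farthest). 0 of the astrocyte markers were called by limma in any comparison. In 5xFAD against WT on control diet their log2 fold changes ran from -0.24 to 0.54, with 3 of 8 above 0. Aqp4 was the highest of them (adjusted p = 0.078). Whether the amount of astrocytes or of choroid plexus differed was not tested.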

How the data were processed

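The authors deposited a signal per gene and library, their read counts scaled by 1 factor per library (normalized counts). Per the submitters' processing notes the tools were Trimmomatic 0.39, HISAT2 2.2.1, featureCounts 2.0.3 and DESeq2 2.11.40.8 with mm10, without roles. The sources used here give neither the annotation nor the strandedness. 100% of values were whole multiples of 1 read within 0.001 reads, so whole reads were recovered. Replicates were not copies of each other (chi-square per degree of freedom 16.1 to 77.1 in 45 pairs).

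Genes were kept with filterByExpr of edgeR 4.0.16 (minimum count 10), which left 18808. The test was limma 3.58.1 (R 4.3.3) on log2(normalized count + 1), pseudocount 1, with trend and robust moderation, in 1 fit of 18 libraries. P-values were adjusted by Benjamini-Hochberg across all tested genes, and a gene is called at 0.05. Fold changes are on the log2(value + pseudocount) scale. Alternatives were edgeR with TMM and DESeq2 1.42.0 on recovered reads, other pseudocounts, scalings, filters and libraries. The method was tested on simulated data. The members, lists and tests were chosen with earlier results of these data known. Named genes are the members, other cystatins past the filter, the 4 called proteases with the smallest p, the 5 genes most like each member without clone-like symbols, nearest tested neighbours, and Csf1r and Ttr. Other named genes (Ctsc, Lgmn, Ctso, Ctsf, Ctsk, Ctsw, the cytotoxic lymphocyte markers, Cstl1 and Stfa1) complete the counts and were chosen after their values were seen. 1 gene that the rule names is not reported here. Lengths are unions of exons in GENCODE M21 (GRCm38), matched without version.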

Additional observations from a re-analysis of the deposited data

Results flagged for a closer look

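Of 15 groups of 6 libraries examined (the 4 cystatins and Cst7 relative to microglia markers, in each of 3 groups), 2 held a library that stood apart from the other 5 beyond the 95% critical value of Dixon's test. Chance gives about 1 in 20 groups. Both flags fell on 5xFAD control replicate 5, with 88282 normalized counts of Cst3 and 1478 of Cstb. The same library had the highest ribosomal protein mean, 12.7 on the log2 scale, and was 1 of the 3 with little Xist. Without it the log2 fold change in 5xFAD against WT on control diet was 0.36 for Cst3 and 0.048 for Cstb. That of fucose against control diet within 5xFAD was -0.096 for Cst3 and -0.11 for Cstb.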

How the results depend on the processing

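Labels number the replicates 1 to 6 in every group and give no meaning to the number. Deviations of same-numbered libraries had r from -0.17 to 0.33, highest between replicates 3 of WT and 5xFAD control. Whether same-numbered libraries share an origin was not tested. With the replicate block the log2 fold change of fucose against control diet in 5xFAD was 0.0064 for Cst7 (limma adjusted p = 0.997). It was -0.15 for Cst3, -0.17 for Cst6 and -0.20 for Cstb (adjusted p = 0.717, 0.850 and 0.715), and none of these was called. The SE went from 0.10 to 0.084 for Cst3, from 0.13 to 0.105 for Cstb and from 0.32 to 0.38 for Cst7. In 5xFAD against WT on control diet the block called 387 genes higher and 52 lower, where the main fit called 371 and 31. The diet difference of Cst7 was near 0 and changed sign with TMM-scaled log2 CPM (-0.00043) and with the ribosomal protein covariate (-0.057, an alternative chosen after seeing the data). It ran from -0.16 to 0.22 with 1 library left out. With that covariate Cst3, Cst6 and Cstb were at 0.035, 0.014 and 0.032. Relative to microglia markers, Cst7 differed between diets by 0.051 without the libraries with little Xist, and by -0.14 to 0.046 with 1 library left out. Over 28 alternatives the adjusted p of the 4 cystatins on fucose was at least 0.634. The 7 protease calls and 0 on fucose held in number in all alternatives run. Genotype differences of the 4 cystatins moved by less than 1 SD between libraries in each of 28 alternatives, a span wider than their SE. With the ribosomal protein covariate the difference of Cstb on control diet changed sign, from 0.14 to -0.086. That of Cst3 went from 0.41 to 0.24 and that of Cst6 from -0.21 to -0.39. DESeq2 called 85 genes lower in 5xFAD on control diet, where limma called 31. Without a filter 1 gene, none of the 4 cystatins, was called on fucose.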
